A study of Mus musculus with 2 samples.

Results

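Genes of ISG15 conjugation and removal were examined in single leukemia cells of the mouse. The 6 genes, Usp18, Isg15, Uba7, Ube2l6, Herc6 and Trim25, were chosen by symbol for their roles in this pathway, out of 31053 genes in the count matrices, and all 6 had enough counts to be measured in both libraries. ISG15 is a ubiquitin-like protein that interferon induces. An E1 enzyme (UBA7) activates it, an E2 enzyme (UBE2L6) carries it and E3 ligases (HERC6 in mice, with TRIM25 as a further ligase) attach it to target proteins, whereas USP18 is the protease that removes it. USP18 also binds the type I interferon receptor subunit IFNAR2 together with STAT2 and restrains signaling there, so that the gene is both a target and a brake of the interferon response.

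The leukemia was made by a retrovirus that brought AE9a, a truncated AML1-ETO fusion protein that causes acute myeloid leukemia, and GFP into fetal liver cells. These cells had loxP sites in Usp18 and UBCER-Cre, a recombinase under a promoter active in all tissues that tamoxifen switches on. Leukemia cells were transplanted into irradiated C57BL/6 recipients of both sexes aged 8 to 12 weeks. Once these were sick they received 2 injections of oil or tamoxifen, and GFP+ Lin- c-Kit+ cells were taken from spleens 3 days after injections began. Both groups share the fusion, the retrovirus, the Cre and the floxed gene, and differ in the injection. Only the donor leukemia cells carry the Cre, and the recipient's own cells keep Usp18. The labels disagree on the deletion. The genotype and treatment labels give Usp18f/f and Usp18delta/delta, while the treatment protocol describes Usp18+/f cells and a heterozygous deletion. The paper describes a single-cell comparison of Usp18f/f with Usp18delta/delta cells, separate from that of the heterozygous deletion. The genotype and treatment labels match the former. Each group is 1 library made from 3 pooled mice, and no label maps cells to mice.

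The matrices hold UMI counts, which count distinct captured transcripts, here from their 3′ ends. A barcode was kept as a cell when it had 500 or more genes and no more than 10% mitochondrial UMIs. This gave 6838 of 7774 barcodes with 66045700 UMIs in the oil-labelled library, and 6472 of 7311 barcodes with 60661486 UMIs in the tamoxifen-labelled library. The median depth was 8622.5 and 8209.5 UMIs per cell, and 14 barcodes occurred in both libraries. The sorted type was checked with marker genes. Kit, Gata2 and Myb were present in both libraries, while Cd34, another progenitor marker, had 5 and 15 UMIs. Mast cell markers made up 2455 and 2257 CPM (counts scaled to a total of 1000000 per library) and erythroid markers 8408 and 9732 CPM, so the cells expressed genes of these lineages. Of the 6 T cell markers, 6 and 4 were at 0 UMIs, and the neutrophil list had 1 UMI in each library. With 1 library in each group no test was run. Every interval given below is at 95% and covers counting error only, and the spread between animals is not known.

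Upstream sequences were compared first, as background to a group of genes that interferon induces. Interferon acts on most of its target genes through the interferon-stimulated response element, whose core was searched as GAAANNGAAA on both strands in the RefSeq promoter windows of GRCm38.p6, from 250 bases before to 50 bases after the start of each gene. Of all 32851 windows, 3.44% held the core, and of the 53 windows of other interferon-stimulated genes (ISGs) 49.1% did. The table held windows for 5 of the 6 genes, with none for Usp18. Isg15 had 3 overlapping matches, which start 78, 72 and 66 bases before the start of the gene, and the windows of Uba7, Ube2l6, Herc6 and Trim25 had none. The 250 bases upstream of Isg15 (chr4:156200819-156201068, minus strand) and of Ube2l6 (chr2:84798578-84798827, plus strand) are set beside each other, with the matches in capitals.
Isg15: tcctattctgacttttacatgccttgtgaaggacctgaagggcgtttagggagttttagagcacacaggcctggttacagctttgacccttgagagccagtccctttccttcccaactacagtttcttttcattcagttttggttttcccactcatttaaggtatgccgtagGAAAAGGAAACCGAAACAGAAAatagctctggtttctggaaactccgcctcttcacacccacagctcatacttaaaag
Ube2l6: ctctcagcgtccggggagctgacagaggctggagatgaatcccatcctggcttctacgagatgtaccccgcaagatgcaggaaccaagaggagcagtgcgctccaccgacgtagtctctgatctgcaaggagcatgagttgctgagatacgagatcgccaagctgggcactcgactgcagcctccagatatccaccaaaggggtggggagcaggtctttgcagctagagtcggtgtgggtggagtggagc
The 3 matches of Isg15 form 1 uninterrupted run on the strand of the gene, and the sequence of Ube2l6 has no capitals.

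All 6 genes were higher in the tamoxifen-labelled library, where 38.3% of the 10527 measured genes were. Measured genes are those with 100 or more UMIs summed over the libraries. In the sums over all kept cells the 6 genes fell into 3 sizes of difference. The protease and the modifier differed by more than 2-fold. The E1 and E2 enzymes and Herc6 differed by less than 1.5-fold, and Trim25 by the least. The place of Trim25 below Ube2l6 depended on how cells were weighted. With every cell given the same weight both had a log2 ratio of 0.23, and with equal cell cycle phase weights Ube2l6 was at 0.16 and Trim25 at 0.15. Levels are given as CPM and are compared between libraries and not between genes.

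Usp18 (ENSMUSG00000030107, chromosome 6, 121245906 to 121270917, plus strand), the targeted gene, was at 5.62 CPM (5.06 to 6.22) from 371 UMIs in the oil-labelled library. From 933 UMIs in the tamoxifen-labelled library it was at 15.4 CPM (14.4 to 16.4). The fold was 2.74 (2.43 to 3.10), a log2 ratio of 1.45 (1.28 to 1.63), with the higher level in the library that the labels name as deleted. This direction is opposite to the one that a deletion would give if the counted reads lay in the deleted part, and directions are given throughout between the libraries as labelled. Where the deleted part lies relative to the counted 3′ ends is not given in the sources used here, so the count could not be used to check the labels or the level of intact Usp18 transcripts.

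Isg15 (ENSMUSG00000035692, chromosome 4, 156199424 to 156200818, minus strand), the modifier itself, had 47.8 CPM (46.2 to 49.5) in the oil-labelled library and 113 CPM (111 to 116) in the tamoxifen-labelled library. The log2 ratio was 1.25 (1.19 to 1.31). Among the measured genes, Usp18 and Isg15 had the 13th and 22nd highest ratios.

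Uba7 (ENSMUSG00000032596, chromosome 9, 107975505 to 107984060, plus strand), the E1 enzyme, had 43.8 CPM (42.2 to 45.4) and 57.3 CPM (55.4 to 59.2), a log2 ratio of 0.39 (0.32 to 0.46). Ube2l6 (ENSMUSG00000027078, chromosome 2, 84798828 to 84810335, plus strand), the E2 enzyme, had 68.1 CPM (66.2 to 70.2) and 87.0 CPM (84.6 to 89.3), a log2 ratio of 0.35 (0.29 to 0.41). The intervals of these enzymes overlapped each other and lay far below those of Usp18 and Isg15.

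Herc6 (ENSMUSG00000029798, chromosome 6, 57581000 to 57664632, plus strand), a ligase for ISG15, had 19.1 CPM (18.1 to 20.2) and 26.6 CPM (25.3 to 27.9), a log2 ratio of 0.48 (0.37 to 0.58). Trim25 (ENSMUSG00000000275, chromosome 11, 88999376 to 89020293, plus strand), which is better known for its role in RIG-I signaling, had 32.9 CPM (31.6 to 34.4) and 37.1 CPM (35.6 to 38.7). Its log2 ratio of 0.17 (0.087 to 0.26) was the lowest of the 6.

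**Figure D1:**
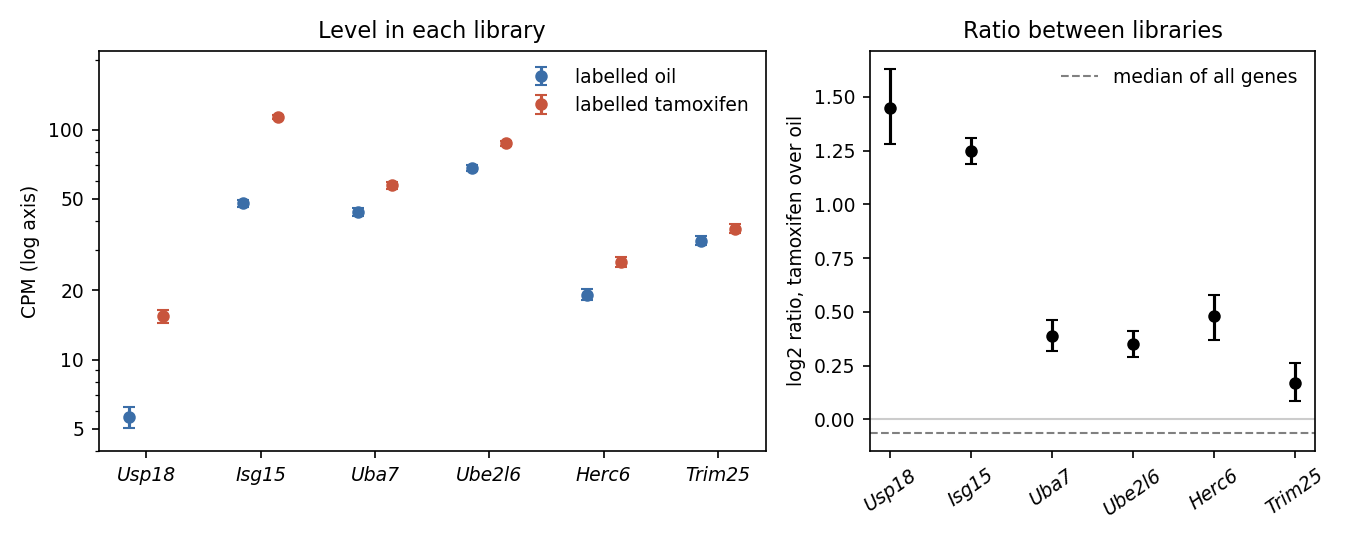
Left, the level of each gene in CPM on a log axis in the oil-labelled library (blue) and the tamoxifen-labelled library (red), with exact Poisson intervals. Right, the log2 ratio of the same levels with its exact interval. Usp18 and Isg15 stand at 1.45 and 1.25, the other 4 genes lie between 0.17 and 0.48, and the dashed line marks the median of all 10527 measured genes at -0.063.

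Of the 6 genes, 2 were at least 2-fold higher in the tamoxifen-labelled library, where 0.475% of the 10527 measured genes were. The same number passed a fold of 1.5, where 2.09% of measured genes did, and none was 1.5-fold lower, where 1.27% were. The proportions within the pathway therefore differed between the libraries. For every 100 Isg15 UMIs there were 11.7 Usp18 UMIs (10.5 to 13.1) in the oil-labelled library and 13.6 (12.6 to 14.5) in the tamoxifen-labelled library. Uba7 went from 91.5 (87.0 to 96.3) to 50.4 (48.4 to 52.6) UMIs per 100 Isg15 UMIs. Ube2l6 went from 142 to 76.6, Herc6 from 40.0 to 23.4 and Trim25 from 68.9 to 32.7. The intervals of Usp18 overlapped between the libraries, whereas the conjugating enzymes were fewer per transcript of the modifier in the tamoxifen-labelled library.

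Relatives of these genes that serve other modifiers were then set beside them. Of 9 E1 enzymes for ubiquitin, SUMO, NEDD8 and others, 8 were lower in the tamoxifen-labelled library and the median log2 ratio was -0.16. Over all measured genes 61.7% were lower and the median was -0.063, so a lower value was the more common one. Mocs3 (-0.49) and Sae1 (-0.42), a subunit of the SUMO E1, were the lowest, and Uba6 (-0.10) and Atg7 (0.0067) the highest. Of 12 measured E2 enzymes, 10 were lower, with a median of -0.15, from Ube2m at -0.36 and Ube2n at -0.31 to Ube2d1 at 0.0079 and Ube2f at 0.070. Of 13 HERC, TRIM and ARIH ligases, 10 were higher, with a median of 0.10. The highest of these were Trim30a (0.59) and Trim14 (0.47), which interferon induces as well, and the lowest were Trim27 (-0.26) and Trim28 (-0.21). None of the E1 and E2 relatives was 1.5-fold higher or lower, where only 2.09% and 1.27% of all measured genes were.

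Of 12 ubiquitin and ubiquitin-like modifiers other than Isg15, 9 were lower, with a median of -0.14. The highest were Atg12 at 0.28 and Fau, a fusion of a ubiquitin-like protein with a ribosomal protein, at 0.42. Among proteases reported to act on ISG15, Usp2 and Usp13 had too few UMIs to be measured. Usp5 was at -0.26, Usp14 at -0.20 and Usp21 at 0.055. None of these 3 was 1.5-fold higher, where only 2.09% of all measured genes were. Of 5 binding partners of USP18 or ISG15, Stat2 was the highest at 0.61 (0.48 to 0.75), followed by Itgb2 at 0.16 (-0.080 to 0.41), whose interval included 0. Ifnar2 was at 0.091 (0.0039 to 0.18), and Skp2, the F-box protein that degrades USP18, was at -0.086 (-0.22 to 0.047).

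Other ISGs gave a wide range. Of 42 measured, 37 were higher in the tamoxifen-labelled library, 19 by at least 1.5-fold and 8 by at least 2-fold, with a median log2 ratio of 0.56 against -0.063 for all measured genes. The list was drawn up with earlier results of these cells known and is no independent evidence of its direction. Ifit1, which binds foreign RNA, was highest at 3.17 and Slfn5 next at 2.35. Ifi27 (-0.070) and Oas1a (-0.062) were the lowest. The ratios of Uba7, Ube2l6 and Herc6 thus lay below the median of the ISGs, and those of Usp18 and Isg15 above it. Of 10 measured genes of interferon receptor signaling, 5 were at least 1.5-fold higher, led by Irf7 at 1.58, a transcription factor of the interferon response, and by Socs1 at 0.71, an inhibitor of JAK kinases. The kinases Tyk2 (-0.032) and Jak1 (0.072) were the lowest.

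Next, the number of cells in which each gene was seen was compared. Because a deeper cell shows more genes, 3000 UMIs were drawn at random, once, from every cell, which left 6330 and 6127 cells and left out 508 and 345 shallower ones. Usp18 was seen in 1.47% of cells (1.19 to 1.80) in the oil-labelled library and in 4.59% (4.08 to 5.14) in the tamoxifen-labelled library. Isg15 was seen in 10.9% (10.1 to 11.7) and 18.7% (17.7 to 19.7). Both shares were higher in the tamoxifen-labelled library with intervals that did not overlap.

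Uba7 was seen in 13.0% (12.2 to 13.9) and 16.0% (15.1 to 17.0) of cells and Ube2l6 in 20.9% (19.9 to 21.9) and 24.6% (23.5 to 25.7). Herc6 was seen in 5.45% (4.90 to 6.04) and 7.31% (6.67 to 7.99). For Trim25, with 10.0% (9.30 to 10.8) and 11.3% (10.6 to 12.2), the intervals of the libraries overlapped. Without thinning, the shares were 4.49% and 10.2% for Usp18, 24.6% and 33.6% for Isg15, 30.8% and 35.7% for Uba7, 44.5% and 49.0% for Ube2l6, 15.9% and 19.0% for Herc6, and 25.9% and 27.5% for Trim25. No group of cells known to lack these genes was at hand to show the share that free RNA alone produces, and so the shares have no background estimate.

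Measures of how transcripts are spread over cells were higher for Isg15 than for the other 5 genes. A cell in which Isg15 was seen held on average 1.44 of its UMIs in the oil-labelled library. In the tamoxifen-labelled library it held 2.04, both at 3000 UMIs per cell. The same mean lay between 1.05 and 1.24 for every other gene in either library. The Fano factor is the variance of the count over cells divided by the mean, and is 1 when all cells share 1 level and only sampling varies. For Isg15 it was 3.71 and 4.85, against 1.03 to 1.29 for the others. Without the cell of each library with the most Isg15, chosen after its counts had been seen, it was 2.95 and 4.71. Both measures also depend on how many UMIs of a gene are counted. Usp18 had 102 and 329 thinned UMIs against 991 and 2329 for Isg15, so these measures cannot compare the spread of Usp18 with that of Isg15. In the oil-labelled library 18 thinned cells held at least 5 Isg15 UMIs, and in the tamoxifen-labelled library 99 did, with a highest count of 29 and 37. Usp18 had at most 3 and 4 UMIs in any thinned cell.

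**Figure D2:**
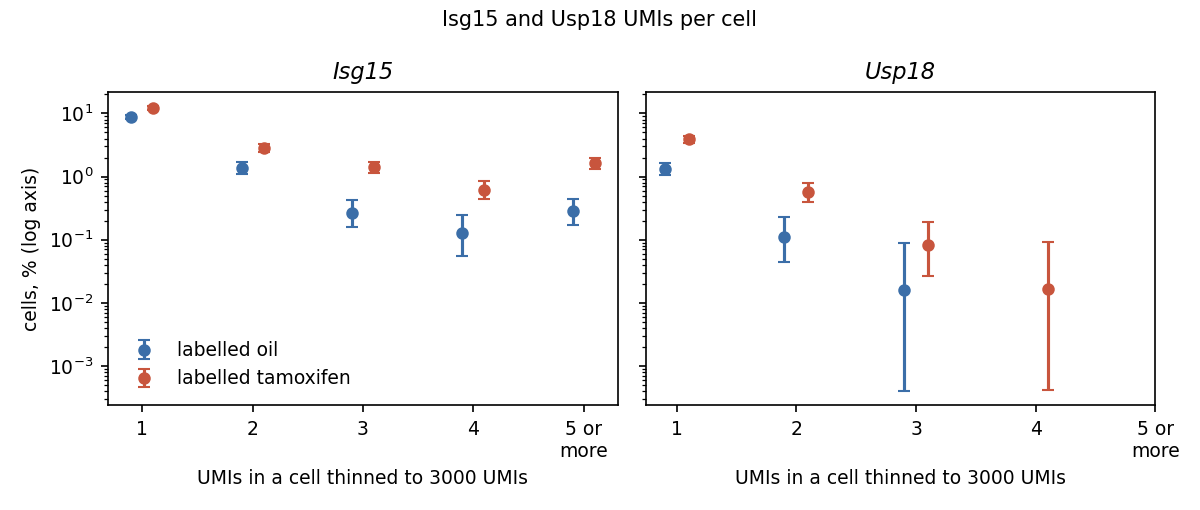
Percentage of cells, on a log axis, that held 1, 2, 3, 4 or at least 5 UMIs of Isg15 (left) or Usp18 (right) after thinning to 3000 UMIs, in the oil-labelled library (blue) and the tamoxifen-labelled library (red), with exact binomial intervals. Bins without cells have no point. For Isg15 the share with at least 5 UMIs was 0.284% and 1.62%, while Usp18 counts above 1 were rare in both libraries.

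Cells with very many Isg15 transcripts were then counted without thinning. In the oil-labelled library 22 cells, 0.322% of all kept, held at least 10 Isg15 UMIs, and in the tamoxifen-labelled library 139 cells, 2.15% of all kept, did. Because these cells were chosen by their Isg15 count, their share of the Isg15 UMIs is high by construction. They held 16.3% of the Isg15 UMIs of the oil-labelled library and 38.6% of those of the tamoxifen-labelled library. Of the Usp18 UMIs they held 10.2% and 23.6%, and of all UMIs 0.434% and 2.51%. A single cell of the oil-labelled library held 18 of these 38 Usp18 UMIs, and without it, a choice made after its counts had been seen, the share was 5.67%. Usp18 was seen in 10 of the 22 cells (45.5%, 24.4 to 67.8) and in 95 of the 139 (68.3%, 59.9 to 76.0), against 4.36% and 8.92% of the other cells. Their median depth was 10721 and 9809 UMIs, against 8612 and 8163 in the other cells.

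The enzymes were less concentrated there. Herc6 had 2.45% and 10.8% of its UMIs in these cells, Ube2l6 1.36% and 6.58%, Uba7 0.761% and 5.67%, and Trim25 0.368% and 4.22%. That cell of the oil-labelled library had 107 Isg15, 18 Usp18 and 7 Herc6 UMIs among 11225, and without it the log2 ratio over all cells was 1.52 (1.35 to 1.71) for Usp18 and 1.30 (1.23 to 1.36) for Isg15. The cell with the most Isg15 in the tamoxifen-labelled library had 85 Isg15, 10 Usp18 and 3 Herc6 UMIs among 14498. When all cells with at least 10 Isg15 UMIs were left out, a choice made after their counts had been seen, the log2 ratio of Usp18 was 1.25 (1.06 to 1.44). That of Isg15 was then 0.83 (0.76 to 0.90), which the choice of cells lowers by its construction. The other 4 ratios stayed within their intervals, at 0.34 for Uba7, 0.30 for Ube2l6, 0.38 for Herc6 and 0.15 for Trim25.

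Whether the genes were seen in the same cells was examined within each library at 3000 UMIs per cell. The number of cells with a UMI of both genes was divided by the number that the product of their 2 shares gives, so that 1 stands for genes seen independently of each other. Usp18 and Isg15 were seen together in 28 cells of the oil-labelled library, where the product gives 10.1 cells, a ratio of 2.77. In the tamoxifen-labelled library they were seen together in 150 cells, where the product gives 52.4, a ratio of 2.86. Put as shares, Usp18 was seen in 4.06% (2.72 to 5.82) of cells with Isg15 and in 1.15% (0.890 to 1.47) of cells without it in the oil-labelled library. In the tamoxifen-labelled library the shares were 13.1% (11.2 to 15.2) and 2.63% (2.20 to 3.11). Among cells with a Usp18 UMI, 30.1% (21.0 to 40.5) and 53.4% (47.4 to 59.3) also had an Isg15 UMI.

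Isg15 and the conjugating enzymes were seen together less far above the product. The ratio of Isg15 with Ube2l6 was 1.26 and 1.40 in the libraries labelled oil and tamoxifen, and that with Uba7 was 1.24 and 1.25. That with Herc6 was 1.28 and 1.72. Herc6 was seen in 6.97% (5.18 to 9.13) of cells with Isg15 and 5.27% (4.70 to 5.88) of cells without it in the oil-labelled library, intervals that overlapped. In the tamoxifen-labelled library it was seen in 12.6% (10.7 to 14.7) and 6.10% (5.45 to 6.80). Usp18 and Herc6 were seen together in 9 cells, where the product gives 5.07, and in 60 cells, where it gives 20.5, a ratio of 2.92.

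The ratios of Trim25 with the other genes ran from 0.858 to 1.13 in the oil-labelled library and from 1.08 to 1.21 in the tamoxifen-labelled library, and Usp18 with Uba7 was at 0.991 and 1.62. A single draw leaves few cells for Usp18, and over all possible draws its ratio was 1.12 and 1.32 with Uba7, 1.29 and 1.52 with Ube2l6, 1.62 and 2.58 with Herc6 and 2.43 and 2.84 with Isg15. With Trim25 it was 1.22 in the oil-labelled library and lay above that with Uba7 in both libraries. Over all draws Trim25 was seen in 12.0% of cells with Usp18 and 9.80% of cells without it in the oil-labelled library. The single draw gave the opposite order there, with 8.60% and 10.1%. In the tamoxifen-labelled library the shares were 16.7% and 10.9% over all draws, further apart than the 13.2% and 11.3% of the single draw. In the single draw, of the 15 ratios between 2 of the 6 genes, 12 were above 1 in the oil-labelled library and 15 in the tamoxifen-labelled library. For comparison, the same ratio with Isg15 was computed for 44 relatives that serve other modifiers. It was highest for the interferon-induced Trim30a, at 1.35 and 1.54. Over the other 43 its median was 0.992 and 0.997, with a range from 0.638 to 1.22 and from 0.836 to 1.26. No relative reached the ratio of Usp18 with Isg15.

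**Figure D3:**
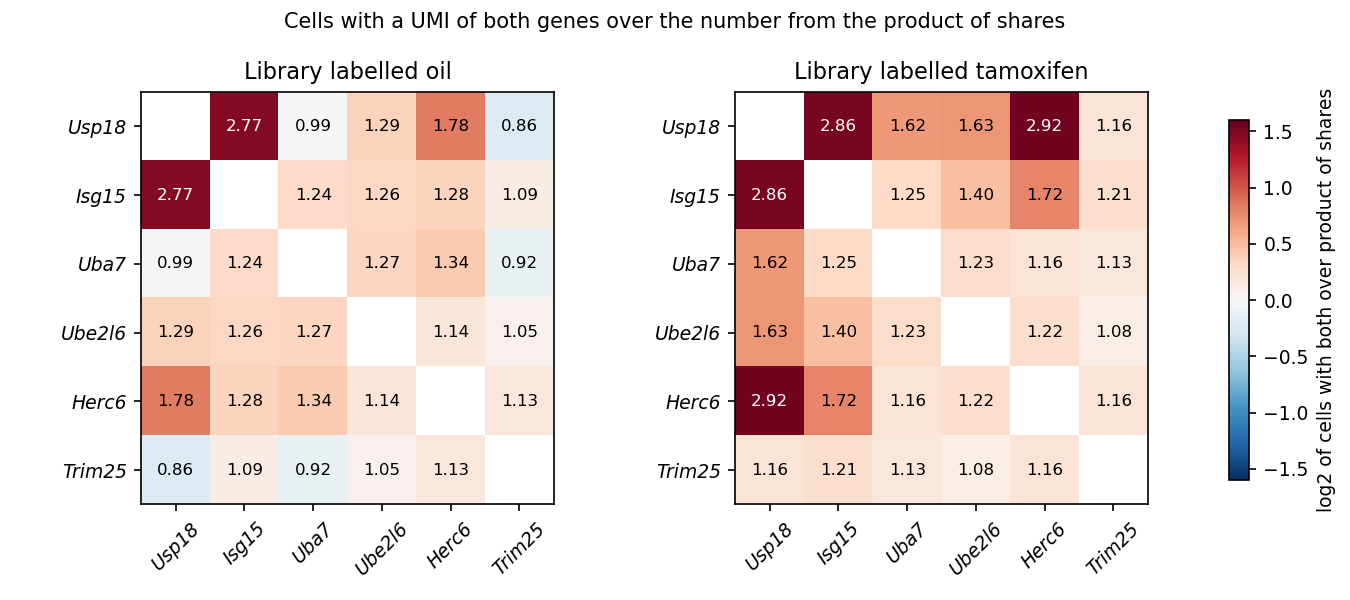
For each 2 of the 6 genes, the number of cells with a UMI of both divided by the number from the product of their shares, at 3000 UMIs per cell, in the oil-labelled library (left) and the tamoxifen-labelled library (right). Red stands for ratios above 1 and blue for ratios below 1. Usp18 with Isg15 is at 2.77 and 2.86, and the row of Trim25 lies between 0.858 and 1.21. Usp18 with Herc6 is at 1.78, from only 9 cells with both, and at 2.92, from 60 cells.

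Cells with several of the 6 genes were few. In the oil-labelled library 15 cells (0.237%, 0.133 to 0.391) had a UMI of 4 or more of them, where the product of the shares gives 5.85 cells. In the tamoxifen-labelled library 81 cells (1.32%, 1.05 to 1.64) did, where the product gives 19.8. All 6 were seen in 1 and 3 cells, and none of the 6 in 53.0% and 44.8% of cells. The product gives 51.4% and 40.4% for cells with none, so both extremes held more cells than independent genes would give.

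The levels were then followed over cells ordered by the summed UMIs of 54 other ISGs at 3000 UMIs per cell. This sum is no independent measure, since the list was drawn up with earlier results known and the sum itself was higher in the tamoxifen-labelled library, and the values by class are a description. Of these UMIs, 22.5% and 19.0% came from Lgals9, and the 5 most abundant genes gave 49.4% and 42.9%. In the oil-labelled library 4.50% of cells had none of these UMIs and 29.6% had at least 5, and in the tamoxifen-labelled library 3.74% and 40.9%. Usp18 went from 2.49 CPM (1.14 to 4.73) in cells with none to 11.4 CPM (9.80 to 13.1) in cells with at least 5 in the oil-labelled library. In the tamoxifen-labelled library it went from 1.85 to 31.8 CPM. Isg15 went from 33.5 CPM (27.8 to 40.1) to 87.5 CPM (83.0 to 92.2), and from 30.1 CPM (23.9 to 37.3) to 223 CPM (216 to 229).

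The ratio between the libraries was not the same in all classes. In cells with no other ISG UMI, the log2 ratio of Isg15 was -0.16 (-0.58 to 0.26) and that of Usp18, from 9 and 5 UMIs, was -0.43 (-2.35 to 1.31), so neither was detectably different. Isg15 was at 0.45 (0.21 to 0.68) with 1 UMI, 0.32 (0.12 to 0.51) with 2, 0.75 (0.62 to 0.89) with 3 to 4 and 1.35 (1.26 to 1.43) with at least 5, the last above every other class with intervals that did not overlap. Usp18 did not rise steadily. It was at 1.21 (0.36 to 2.09) with 1 UMI, 0.51 (-0.077 to 1.11) with 2, 0.72 (0.33 to 1.11) with 3 to 4 and 1.48 (1.25 to 1.73) with at least 5, an interval above those at 2 and at 3 to 4 UMIs that overlapped those at 0 and 1.

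Herc6 was at 0.26 (-0.38 to 0.89), 0.31 (-0.032 to 0.65) and 0.31 (0.0019 to 0.62) with 0, 1 and 2 UMIs, at -0.041 (-0.25 to 0.17) with 3 to 4 and at 0.62 (0.45 to 0.79) with at least 5. Only the class with 3 to 4 UMIs had an interval that lay below that of the highest class. Trim25 lay between -0.074 and 0.079 in the 4 lower classes, with intervals that all included 0, and was at 0.35 (0.19 to 0.50) with at least 5 UMIs. Uba7 had a different course. Its ratio was 0.42 (0.070 to 0.77) in cells with no other ISG UMI and 0.36 (0.24 to 0.48) in cells with at least 5, and lay between 0.23 and 0.36 in the classes between. Ube2l6 varied between 0.0034 (-0.15 to 0.16) at 2 UMIs and 0.40 (0.31 to 0.49) at 5 or more. The class with at least 5 UMIs has no upper end and the libraries can differ in their cells within it.

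**Figure D4:**
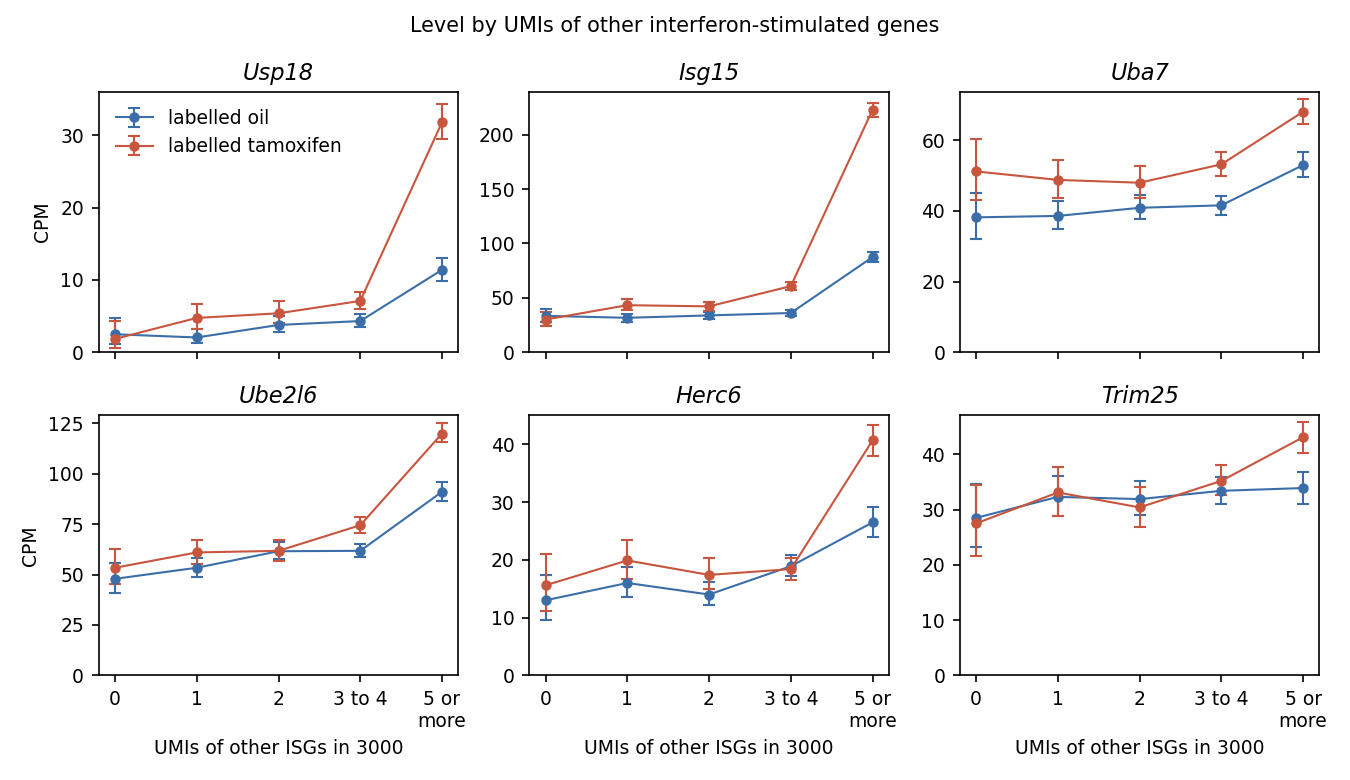
CPM of each gene in cells with 0, 1, 2, 3 to 4 or at least 5 UMIs of other ISGs among 3000, in the oil-labelled library (blue) and the tamoxifen-labelled library (red), with exact Poisson intervals. Usp18 and Isg15 lie close together in both libraries in cells with 0 and reach 11.4 and 31.8 CPM and 87.5 and 223 CPM in cells with at least 5, while Trim25 stays between 27.5 and 43.1 CPM.

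The genes whose counts over cells were most like those of Usp18 and Isg15 were sought among 9010 genes with a sum of at least 500 UMIs, by the lower of the Pearson correlations within the libraries. For Usp18 they were Rtp4, Ifit1, Irf7, Oas3 and Oasl2, with r from 0.085 to 0.13 in the oil-labelled library and from 0.16 to 0.27 in the tamoxifen-labelled library. For Isg15 they were Irf7, Ifit1, Rtp4, Hba-a2 and Oasl2, with r from 0.14 to 0.18 and from 0.16 to 0.36. The correlation of Usp18 with Isg15 themselves was 0.13 and 0.34. These correlations run over 6330 and 6127 cells of 1 pool each, which are not independent samples.

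A hemoglobin gene thus stood among ISGs for Isg15, and cells were compared by their share of hemoglobin UMIs. In the 10% of cells with the highest share, Isg15 had 120 CPM (110 to 130) in the oil-labelled library against 42.1 CPM in the other cells. In the tamoxifen-labelled library it had 308 CPM (293 to 324) against 96.0 CPM. Uba7 was higher in these cells as well, at 93.6 against 39.8 CPM and 126 against 51.1 CPM, and Ube2l6 at 127 against 63.4 CPM and 142 against 82.0 CPM. Usp18, at 7.39 against 5.48 CPM and 17.2 against 15.2 CPM, Herc6, at 21.6 against 18.9 CPM and 23.8 against 26.9 CPM, and Trim25, at 37.8 against 32.6 CPM and 47.6 against 36.2 CPM, differed less. Of the cells with at least 10 Isg15 UMIs, 5 of 22 (22.7%, 7.82 to 45.4) and 39 of 139 (28.1%, 20.8 to 36.3) were among them. The interval of the oil-labelled library included the 10% that this subset makes up of all cells.

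The ratio between the libraries within these hemoglobin-rich cells was 1.37 (1.23 to 1.51) for Isg15 and 1.22 (0.64 to 1.82) for Usp18, close to those in the other cells, at 1.19 (1.12 to 1.26) and 1.47 (1.29 to 1.66). Hemoglobin differed between the libraries too, with Hba-a2 at 0.82 and Hba-a1 at 0.59 but Hbb-bt at -0.011, and its part in the level of Isg15 was not tested beyond these values.

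Other subsets gave a different picture for Usp18. In the 10% of cells with the highest share of mast cell protease UMIs, Usp18 had 9.65 and 10.9 CPM from 30 and 35 UMIs, a log2 ratio of 0.18 (-0.57 to 0.93), and in the other cells 1.53 (1.35 to 1.71). These intervals did not overlap. Isg15 in the same cells had 52.8 and 94.3 CPM, a ratio of 0.84 (0.56 to 1.12). In the 10% with the highest share of UMIs from Kit, the receptor used for the sort, Isg15 had only 34.3 and 61.0 CPM, with a ratio of 0.83 (0.48 to 1.19), and Usp18 had 9.65 and 18.7 CPM, with a ratio of 0.96 (0.29 to 1.65). Ube2l6 was not detectably different in the protease-rich or the Kit-rich cells, at -0.10 (-0.30 to 0.10) and -0.068 (-0.28 to 0.14). Immediate early genes, which respond fast to stimulation and to cell handling, gave the opposite for Isg15. In the 10% of cells richest in them it had 47.6 and 190 CPM, a ratio of 2.00 (1.75 to 2.25). All 9 measured immediate early genes were lower in the tamoxifen-labelled library, from Fosb at -1.69 to Btg2 at -0.20. These cells were ranked within each library, so that the lowest share they hold differs between the libraries. All of these subsets were shallower than the other cells. Median depth was 4172 and 4387.5 UMIs in the protease-rich cells and 4069.5 and 4481.5 in the Kit-rich cells. It was 4625 and 4669 in the cells richest in immediate early genes. The other cells had medians between 8693.5 and 9401.5 UMIs, and the part of depth in these ratios was not tested.

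Cell cycle phase was assigned from S and G2M genes in the thinned cells. G1 cells made up 45.4% of the oil-labelled library and 58.9% of the tamoxifen-labelled library, S cells 19.5% and 13.6%, and G2M cells 35.2% and 27.5%. The levels of several genes differed between phases. Ube2l6 had 113 CPM (108 to 118) in G1 cells against 48.7 CPM in S and 47.6 CPM in G2M cells of the oil-labelled library, and 119, 59.1 and 62.8 CPM in the tamoxifen-labelled library. Isg15 had 63.4, 38.1 and 42.8 CPM in G1, S and G2M cells of the oil-labelled library and 154, 64.1 and 90.3 CPM in the tamoxifen-labelled library. Usp18 had 7.33, 4.59 and 4.88 CPM and 21.0, 9.80 and 11.4 CPM. The gene with the largest factor between phases was thus Ube2l6 in the oil-labelled library and Isg15 in the tamoxifen-labelled library. Within G1 cells the log2 ratio of Ube2l6 was 0.072 (-0.0072 to 0.15), so that its higher level over all cells was not seen in this phase, whereas it was 0.28 (0.13 to 0.43) in S and 0.40 (0.29 to 0.51) in G2M cells.

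Usp18 was higher in the tamoxifen-labelled library in every phase, at 1.52 (1.25 to 1.80) in G1, 1.09 (0.65 to 1.54) in S and 1.23 (0.93 to 1.53) in G2M cells. Isg15 was at 1.28 (1.19 to 1.38), 0.75 (0.59 to 0.91) and 1.08 (0.98 to 1.18), lower in S than in both other phases with intervals that did not overlap. Uba7 was similar in the 3 phases, at 0.28, 0.36 and 0.28. Trim25 was at 0.26 (0.12 to 0.39) in G1, 0.082 (-0.12 to 0.28) in S and -0.061 (-0.21 to 0.084) in G2M cells, and Herc6 at 0.59 (0.42 to 0.77), 0.14 (-0.087 to 0.36) and 0.39 (0.20 to 0.58).

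**Figure D5:**
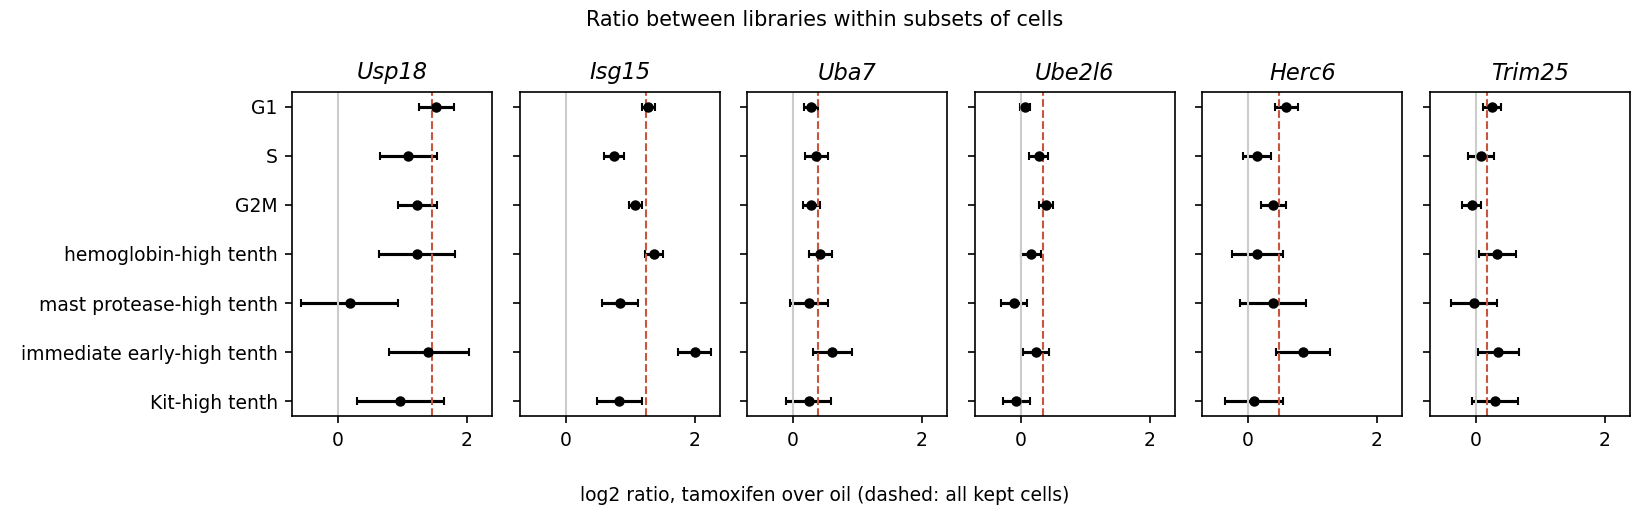
Log2 ratio of the tamoxifen-labelled library over the oil-labelled library for each gene within cell cycle phases and within the 10% of cells with the highest share of hemoglobin, mast cell protease, immediate early or Kit UMIs, with exact intervals. The dashed line is the ratio over all kept cells. Isg15 is above 0 in all 7 subsets, from 0.75 in S cells to 2.00 in the cells rich in immediate early genes, and Usp18 comes closest to 0 in the cells rich in mast cell proteases at 0.18.

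The ratios also differed with the depth of a cell. Over 4 depth classes of equal size, from the shallowest to the deepest, Isg15 was at 1.69 (1.49 to 1.89), 1.22 (1.09 to 1.34), 1.06 (0.95 to 1.16) and 1.31 (1.21 to 1.42), highest in the shallowest class with an interval that overlapped none of the others. Usp18 was at 1.63 (1.12 to 2.17), 1.65 (1.30 to 2.01), 1.46 (1.14 to 1.79) and 1.19 (0.88 to 1.51), with intervals that all overlapped. Ube2l6 was at 0.024 (-0.12 to 0.17) in the shallowest and 0.46 (0.36 to 0.56) in the deepest class, and Trim25 at 0.34 (0.10 to 0.59) and 0.0046 (-0.13 to 0.14). Median depth was 6089 and 6471 UMIs in G1 cells and 13023 and 12635 UMIs in G2M cells, so depth and phase moved together.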

How the data were processed

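The data are 3′ single-cell RNA counts of 2 libraries. The authors mapped the reads to mm10 with Cell Ranger 3.0.2 and deposited raw UMI counts per gene and barcode, without normalization, and used Seurat for their own analysis, which was not repeated here. Gene positions are from GENCODE M21. The genes and lists were chosen with earlier results of these data known. Cells were filtered as stated, counts were summed per library and divided by its total, and intervals are exact (Poisson for CPM, conditional binomial for ratios, Clopper-Pearson for shares). Phases were called with scanpy. Scrublet called 0% and 0.0137% of barcodes doublets, so it did not work, and none were removed. Named genes are the 6 genes, the 2 highest and 2 lowest ratios of each list and the 5 most alike, and the results for some genes that this rule selects are not reported here. Ratios and intervals were checked on simulated Poisson counts without differences between cells. This check uses the same model as the intervals, so it cannot show how they hold for genes that vary strongly over cells. The intervals of such genes, Isg15 above all, do not cover that variation. Summed counts give deep cells more weight, and an alternative weighted all cells alike. The alternatives used edgeR 4.0.16 (TMM) and DESeq2 1.42.0 (size factors) for scaling only, in R 4.3.3. The rest was run in Python 3.11.15 with scanpy 1.11.5, scipy 1.17.1 and numpy 2.4.6.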

Additional observations from a re-analysis of the deposited data

Results flagged for a closer look

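The 936 and 839 barcodes that the cell filter left out were not used in the comparisons above. In them Isg15 had 164 and 436 UMIs, a log2 ratio of the tamoxifen-labelled library over the oil-labelled library of 1.35 (1.09 to 1.62). Usp18 had 37 and 63 UMIs, a ratio of 0.71 (0.10 to 1.34), and Ube2l6 had 301 and 383 UMIs, a ratio of 0.29 (0.068 to 0.51). These 3 genes were thus higher in the tamoxifen-labelled library in data outside the main measurement, beyond counting error and with no replicate check. In the left-out barcodes the intervals of Uba7, Herc6 and Trim25 included 0.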

How the results depend on the processing

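No paired analysis was possible because there is only 1 library in a group. All 6 log2 ratios stayed above 0 in each of the 60 values from other settings. The stricter cell filter, with 1000 or more genes and no more than 5% mitochondrial UMIs (673 and 771 cells), gave 1.74 for Usp18, 1.68 for Isg15, 0.54 for Uba7, 0.42 for Ube2l6 and 0.72 for Herc6, while the interval of Trim25 (0.22, -0.064 to 0.51) then included 0. With equal phase weights, Isg15 was at 1.18, Uba7 at 0.29 and Ube2l6 at 0.16. With every cell given the same weight, Ube2l6 was at 0.23. Scaling to the UMIs of genes that are neither ribosomal protein nor mitochondrial put Isg15 at 1.32 and Ube2l6 at 0.42. Without cells with at least 10 Isg15 UMIs, an alternative added after seeing the data, Usp18 was at 1.25 and Isg15 at 0.83. The other 47 values, which include all barcodes, no shared barcodes, no cells with high Scrublet scores, TMM and median-ratio scaling, lay within the interval of the reported ratio. Among them, Trim25 was at 0.15 with equal phase weights and at 0.23 with every cell given the same weight, close to Ube2l6 in both.

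The ratio of Usp18 and Isg15 seen together stayed within its interval in 9 of 10 values, and was 2.28 in the tamoxifen-labelled library at 5000 UMIs per cell. The difference in the share of cells kept its direction in all 24 values and, for Usp18, went from 2.45 percentage points at 2000 UMIs to 5.71 without thinning. The numbers of genes depend on the minimum count. With at least 20 UMIs, 199 and 572 genes were 2-fold and 1.5-fold higher and 99 and 370 lower, and with at least 500 UMIs 22 and 105 were higher and 7 and 73 lower, against 50, 220, 15 and 134 at 100 UMIs.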
